A study of Canis lupus familiaris with 14 samples.

Results

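The genes described here are the interferon-stimulated genes, a list of 43 genes that cells switch on when interferon binds its receptor. They were looked up by symbol on the array, and 35 of the 43 were present under a single annotated symbol, among 15115 genes so annotated in all. The other 8 (OASL, DDX58, ZBP1, IFIT1, IFIT3, BST2, SAMD9 and SP110) are listed under no probe set of their own symbol and were not analysed here. The 35 members have 58 probe sets, and a member with several was given the mean of their log2 signals. The data are 14 GeneChip Canine Genome V2.0 arrays, each hybridised with RNA from a fine needle aspirate of a lymph node. Lymphoma aspirates, taken before any dose of a phosphatidylinositol 3-kinase inhibitor, came from 10 pet dogs seen at 3 clinics, of which FS21, NE41, NE42, RB03, RB16, RB07 and RB10 were labelled B-cell lymphoma (7 dogs) and FS22, FS25 and NE45 T-cell lymphoma (3 dogs). FS21, RB07, FS22 and FS25 had relapsed after earlier chemotherapy, and the dogs were of various breeds. Normal aspirates came from 3 disease-free Beagles of 1 colony, namely 63, 2970 and a dog that gave both 3024l and 3024r from different nodes. Each lymphoma array is 1 dog, so p-values measure the spread between dogs, and breed, colony and clinic cannot be told apart from disease in any comparison with normal nodes.

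Type I interferons are secreted when a cell detects viral or misplaced nucleic acid, and they act through a receptor on the same and neighbouring cells. The receptor's kinases set off the assembly of ISGF3, a transcription factor that contains STAT2 and IRF9, and ISGF3 switches on the interferon-stimulated genes. Their products sense foreign RNA, block viral replication, attach the ubiquitin-like protein ISG15 to other proteins, or feed back on the signal, and plasmacytoid dendritic cells are the best known source of the interferon itself.

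The labels were first set against lineage markers, because CD79A and CD3E went against the label on 3 arrays. CD79A, which pairs with surface immunoglobulin on B cells, had log2 signals of 9.29 to 11.52 in FS21, NE41, NE42, RB03 and RB16. CD3E, a signalling subunit of T-cell receptors, had 7.22 to 9.29 in the same 5 arrays. RB07 and RB10, labelled B-cell, had CD79A signals of 8.06 and 8.11 and CD3E signals of 12.11 and 12.54, and FS22, labelled T-cell, had 10.09 for CD79A and 8.80 for CD3E. MS4A1 (CD20), a further B-cell marker, had 4.90 in FS22 against 12.02 to 12.50 in the 5 arrays, so with this gene the markers of FS22 were mixed. It had 2.89 in RB07 but 10.40 in RB10 and 10.89 in NE45, against 9.88 to 11.17 in the normal nodes. With this gene the markers of RB10 and of NE45, labelled T-cell, were therefore mixed too. CD79B and CD22, also B-cell markers, went with CD79A instead. They had 10.47 and 12.44 in FS22, 7.39 and 8.91 in RB10, and 6.2 and 6.89 in NE45. The normal nodes had 8.76 to 9.66 for CD79B and 11.26 to 12.06 for CD22. The B-cell list was not uniform, since FCRLA in FS22 (5.95) lay below every normal node and BLNK in NE45 (7.12) lay among them. The study's own clustering of these profiles placed FS22 with FS21, NE41, NE42, RB03 and RB16 in a class E-J, and RB07 and RB10 with FS25 and NE45 in a class K-N. Because the classes were drawn from the same profiles, values by class are a description, with no test. Array 3024l had the highest ratio of the 3′ to the 5′ GAPDH probe set, at 23.2 against 3.30 to 8.94 on the other 13 arrays. Such a ratio can come with RNA degradation, but the study reports that every RNA passed its integrity checks. The cause of the ratio was not tested, and results that rest on 3024l are given with and without it.

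Taken over 34 members, the interferon-stimulated genes were high on every class E-J lymphoma and low on every class K-N lymphoma, and normal nodes lay between or at the level of class K-N. The 34 members are those that reached a signal of 100 on 3 or more of the 14 arrays, and each member was centred on its own mean over the arrays. The mean member level on this log2 scale was 1.71 in NE41, 1.38 in RB16, 0.83 in RB03, 0.75 in FS22, 0.47 in FS21 and 0.27 in NE42, the arrays of class E-J. It was -0.59 in RB07, -0.66 in RB10, -0.93 in FS25 and -1.60 in NE45, the arrays of class K-N. It was -0.09 in 63, -0.27 in 2970, -0.25 in 3024r and -1.0 in 3024l. Class E-J did not overlap with class K-N or with the normal nodes, whereas class K-N overlapped with the normal nodes through 3024l only. Within the label B-cell lymphoma the level ran between -0.66 and 1.71, and within T-cell lymphoma between -1.60 and 0.75, so both labels held arrays on either side of the normal nodes 63, 2970 and 3024r. In these bulk aspirates fewer cells of a type and less RNA per cell cannot be told apart.

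**Figure D1:**
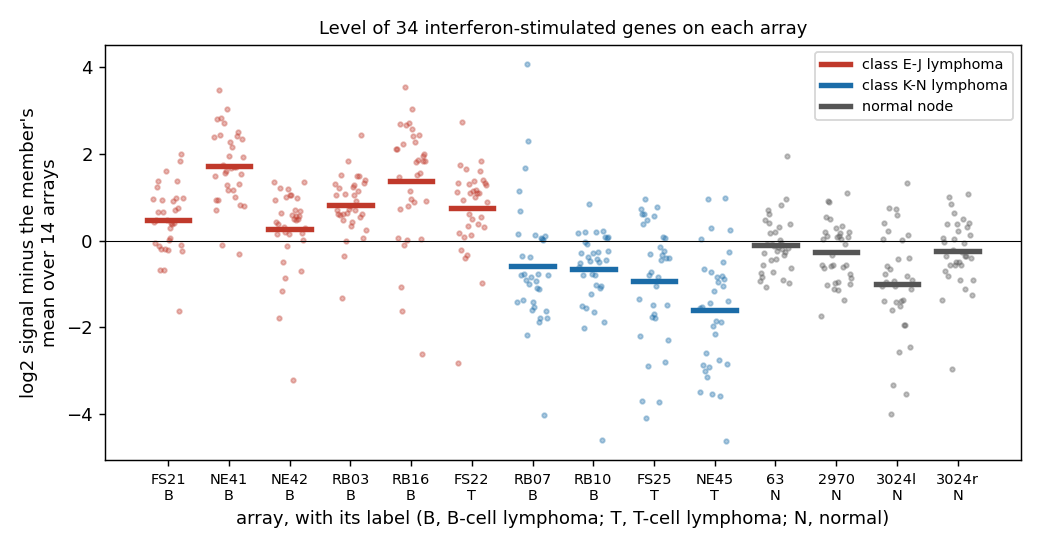
Log2 signal of 34 interferon-stimulated genes on each of the 14 arrays (horizontal axis, with the label under each name), each gene minus its mean over the arrays (points), and their mean (bar). NE41 at 1.71 and RB16 at 1.38 have the highest bars, and NE45 at -1.60 has the lowest.

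NE41 and RB16 stood above the other lymphomas of their class across most of the list, and since both were known to be high when the genes were chosen, the counts that follow describe that choice and nothing is read from their shares. NE41 exceeded all 4 of FS21, NE42, RB03 and FS22 in 28 of 34 members (82.4%), against 20.9% of the 9400 genes with enough signal, and the median member was 1.13 higher in NE41 than in their mean. RB16 did so in 22 members (64.7%), against 20.3% of those genes, with a median of 0.92. Over the 14 arrays NE41 was the highest in 15 members and RB16 in 12, and NE45 was the lowest in 13. The 2 high arrays did not share every member. RB16 was below all 4 in MX1, MX2, IFI35 and IFI6, and NE41 was below all 4 in IFI35. MX1, a GTPase that traps viral ribonucleoproteins, had a log2 signal of 12.63 in NE41, the highest of all arrays, and of 8.08 in RB16, just below the lowest normal node at 8.09. RSAD2, also called viperin, which makes a chain-terminating nucleotide, had 8.85 in RB16 and 7.06 in NE41, yet its highest signal was 9.40 in RB07 of class K-N. NE41 and RB16 carry the same label and come from different clinics.

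**Figure D2:**
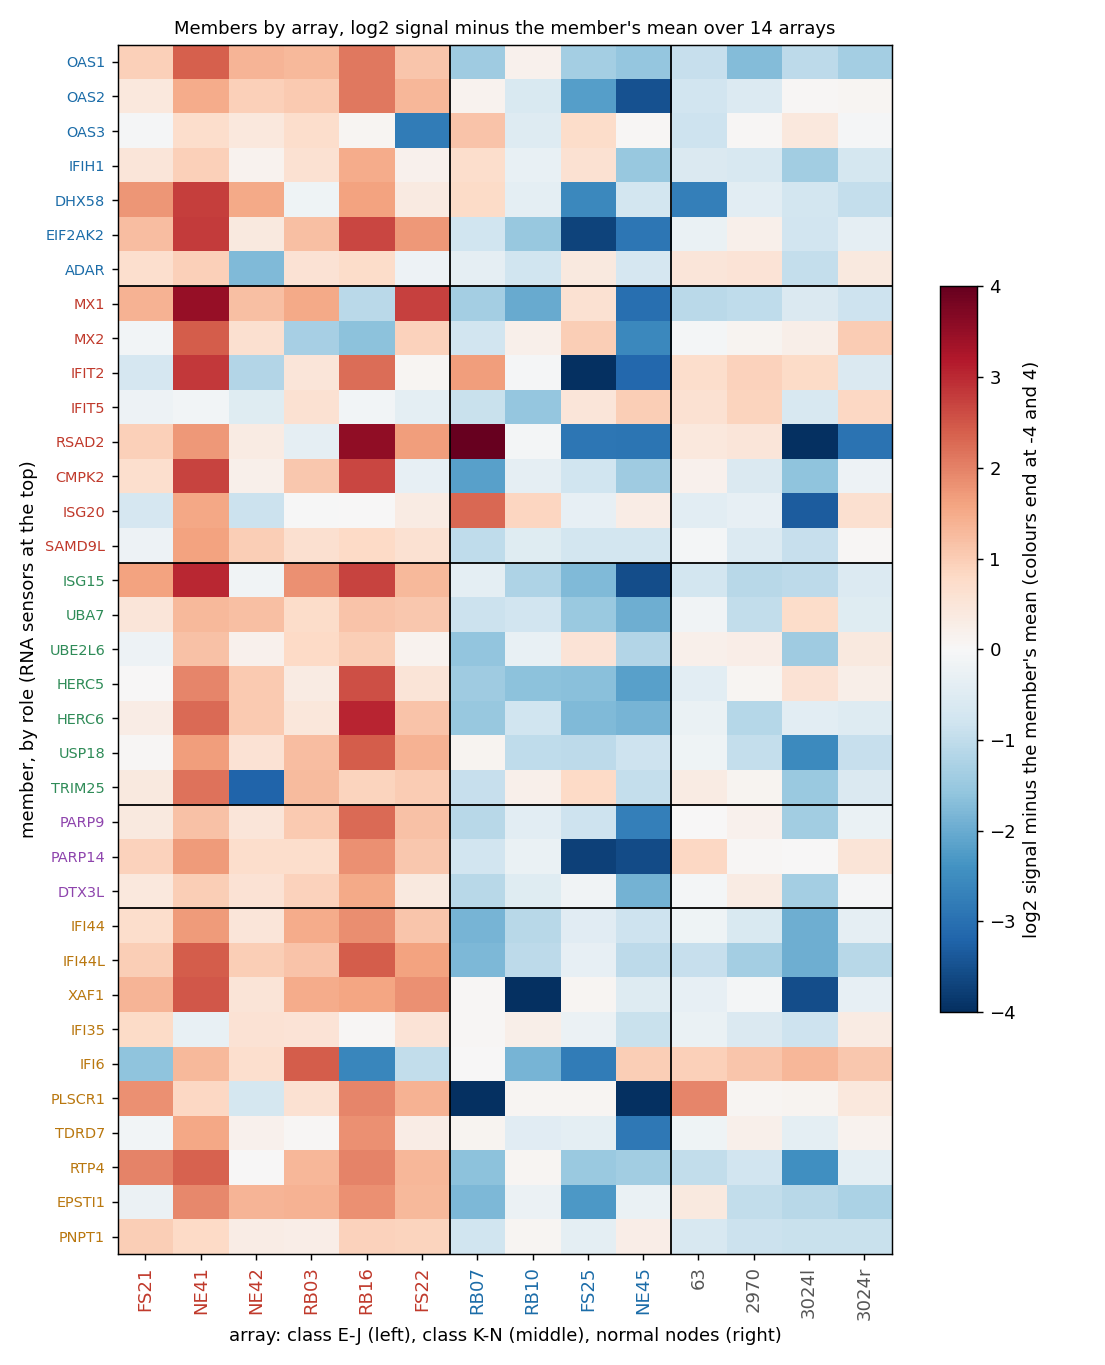
Heat map of the 35 members (rows, by role) on the 14 arrays (columns: class E-J, class K-N, normal nodes), coloured by log2 signal minus the member's mean over the arrays, with colours ending at -4 and 4. NE41 and RB16 are red in most rows, RB16 is blue in MX1, MX2 and IFI6, and RSAD2 is at 9.40 in RB07.

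The main test compared a B-cell set that the study had chosen, made up of RB16, RB03, NE42 and FS21 without NE41, with nodes 63, 2970 and 3024r. RB16, 1 of these 4 lymphomas, was known to be high when the genes were chosen. The member counts and shares below therefore partly describe that choice. In these 4 lymphomas 8 interferon-stimulated genes rose and 0 fell (limma, adjusted p under 0.05 over all 8295 genes tested). The 8 were OAS1, IFI44L, RTP4, IFI44, XAF1, UBA7, PNPT1 and IFIH1, with rises between 1.31 and 2.77 on the log2 scale. Of the 35 members 31 had enough signal to be tested, and OAS3, DHX58, IFIT2 and RSAD2 did not. Across all genes 289 rose (3.48%) and 613 fell (7.39%), and after quantile normalization 411 rose and 526 fell. At an unadjusted p under 0.05, 17 members were higher and 1 was lower by limma. The share of all genes at that level was not counted for limma, so nothing is read from these counts. By the methods' t-test, which called 0 members at an adjusted p under 0.05, 13 were higher and 1 was lower at that unadjusted level. Of all 8295 genes 975 were higher by that t-test at that level. At the methods' false discovery threshold of 0.2 the same t-test called 14 of 31 members higher and 1 lower, against 12.5% of all genes higher and 16.1% lower. The difference was positive in 28 of the 35 members, with a median of 1.31 against -0.06 over all genes tested, and the median was 0.86 without RB16. It was positive in 30 after quantile normalization or centring of each array on its median, where IFIT2 and TRIM25 turned. All 4 lymphomas lay above all 3 normal nodes in 16 of the 31 members tested, against 13.7% of all genes. The 8 calls depended on which arrays were used. Without 63 only 1 of them was called and without 2970 or 3024r none was. Without FS21, and likewise without RB16, 4 of the 8 were kept. The direction stayed positive for all 8. The number of members that rose was 5 without RB03 or RB16, 0 in a fit of all arrays, 2 where 3024l stood in for 3024r, and 1 with dim genes kept in the test. The share of all genes called in these refits was not counted, so the changes are not read as particular to the members.

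**Figure D3:**
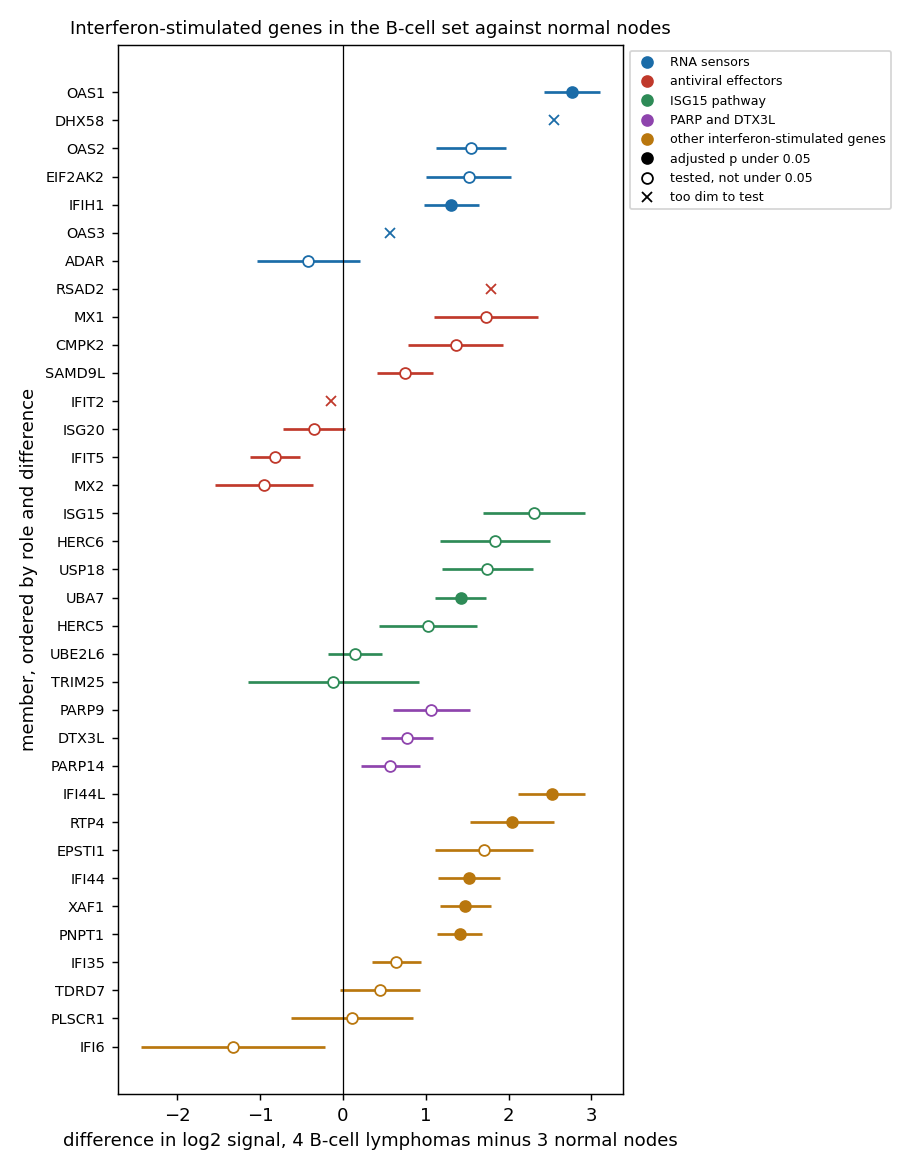
Log2 signal of the 35 members, mean of the 4 lymphomas of the B-cell set minus mean of its 3 normal nodes, grouped by role (colour), with the standard error as a bar. Filled circles have an adjusted p under 0.05, open circles do not, and crosses were too dim to test. OAS1 lies farthest right at 2.77 and IFI6 farthest left at -1.33.

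Of the 7 measured sensors of foreign RNA, 5 were tested and 2 of these rose. OAS1, an enzyme that answers double-stranded RNA by making the adenylate chains that switch on RNase L, had log2 signals of 9.02 in FS21, 9.42 in NE42, 9.36 in RB03 and 10.16 in RB16. The normal nodes had 7.13 in 63, 6.32 in 2970 and 6.70 in 3024r. The groups were far apart, and OAS1 rose by 2.77 (SE 0.338, adjusted p = 0.00714), a 6.82-fold difference. All 5 of its probe sets were higher in the lymphomas, by 2.35 to 3.08. OAS2, an enzyme of the same family, had 11.21, 11.72, 11.83 and 12.88 in FS21, NE42, RB03 and RB16, and 10.02, 10.22 and 10.84 in 63, 2970 and 3024r. It did not overlap between the groups and just missed the threshold (1.55, SE 0.424, adjusted p = 0.0585), which it passed without FS21 at 1.78 (adjusted p = 0.0479). The lymphoma left out here, and below for MX1, IFIT5 and ISG15, is the one nearest the normal nodes. It was picked from the omissions after seeing the values, so such a pass is a description and not support. IFIH1, which encodes the helicase MDA5, had 10.09, 9.76, 10.22 and 11.08 in the same 4 lymphomas and 9.04, 8.98 and 8.92 in the same 3 normal nodes. Its normal nodes lay close together and below every lymphoma, and it rose by 1.31 (SE 0.332, adjusted p = 0.0474). EIF2AK2, the kinase PKR that halts translation, had a difference of 1.52 (SE 0.511, adjusted p = 0.0991). ADAR, which edits adenosines in double-stranded RNA, had -0.42 (SE 0.622, adjusted p = 0.677). OAS3 and DHX58 were too dim to test. The mean of the 2 probe sets of DHX58, a regulator of RNA sensing, reached a signal of 100 on 1 array, NE41, but the probe sets were unlike, since 1 of them reached it on 7 arrays (mean log2 signal 7.28 in the 4 lymphomas and 4.95 in the 3 normal nodes) and the other on 0.

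Among the antiviral effectors 8 were measured, 6 were tested and 0 passed the threshold (limma). MX1 had log2 signals of 10.54 in FS21, 10.36 in NE42 and 10.68 in RB03 but 8.08 in RB16, against 8.09 in 63, 8.14 in 2970 and 8.33 in 3024r. RB16 alone brought the groups into overlap, and the difference was 1.73 (SE 0.626, adjusted p = 0.115). Without RB16, the lymphoma nearest the normal nodes, MX1 passed the threshold at 2.34 (adjusted p = 0.00522), again a description only. CMPK2, a mitochondrial nucleotide kinase, had 6.88, 6.41, 7.28 and 8.88 in FS21, NE42, RB03 and RB16, and 6.38, 5.62 and 6.0 in 63, 2970 and 3024r, where all 3 signals were under 100. The groups nearly touched (1.36, SE 0.572, adjusted p = 0.161), and its 4 probe sets gave differences between -0.24 and 2.62. IFIT5, which binds viral RNA ends, was the 1 member that was lower at an unadjusted p under 0.05. It had 7.47, 7.18, 8.29 and 7.56 in the lymphomas and 8.28, 8.55 and 8.51 in the normal nodes, a difference of -0.82 (SE 0.302, adjusted p = 0.119), with RB03 at the level of 63, and without RB03 it passed the threshold at -1.04 (adjusted p = 0.0322). MX2, a GTPase related to MX1, had -0.95 (SE 0.590, adjusted p = 0.312), and SAMD9L, a restraint on poxvirus replication and cell growth, had 0.75 (SE 0.338, adjusted p = 0.183).

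RSAD2 and IFIT2 were too dim for the test in this comparison but ranged widely over the arrays. RSAD2 had 6.26, 5.63, 4.96 and 8.85 in FS21, NE42, RB03 and RB16, and 5.73, 5.81 and 2.36 in 63, 2970 and 3024r, so only RB16 stood out among the lymphomas. IFIT2, which binds RNA and slows translation, had 4.86, 4.37, 6.02 and 7.76 in these lymphomas and 6.25, 6.45 and 4.97 in these normal nodes. Its groups overlapped, with a difference of -0.14 that became 0.14 after quantile normalization and 0.01 after centring on the array median. Over all 14 arrays the members with the widest ranges on the log2 scale were RSAD2 (8.07), XAF1 (7.10), IFIT2 (6.93), PLSCR1 (6.58) and ISG15 (6.57).

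The ISG15 pathway was measured in full, and 1 of its 7 members, all tested, rose. UBA7, the enzyme that activates ISG15 for attachment, had log2 signals of 8.76 in FS21, 9.48 in NE42, 9.0 in RB03 and 9.43 in RB16, and of 8.15 in 63, 7.30 in 2970 and 7.79 in 3024r. The groups were apart, UBA7 rose by 1.42 (SE 0.304, adjusted p = 0.0296), and its 3 probe sets gave 1.34 to 1.48. Node 3024l, outside this comparison, had 9.01. ISG15 itself had 10.58, 8.84, 10.81 and 11.68 in the lymphomas and 8.25, 7.85 and 8.41 in the normal nodes. Every lymphoma exceeded every normal node, with NE42 only a little above 3024r, and the difference of 2.31 narrowly missed the threshold (SE 0.618, adjusted p = 0.0553), which it passed without NE42 at 2.86 (adjusted p = 0.0128). USP18, which removes ISG15 and restrains the interferon receptor, had 7.82, 8.36, 9.0 and 10.18 against 7.61, 6.82 and 6.85. It did not overlap either (1.75, SE 0.554, adjusted p = 0.0868). HERC6 and HERC5, ligases that attach ISG15 in mice and in humans, had 1.83 (SE 0.664, adjusted p = 0.114) and 1.03 (SE 0.597, adjusted p = 0.285). UBE2L6, the conjugating enzyme of the pathway, had 0.15 (SE 0.332, adjusted p = 0.791), and TRIM25, a ubiquitin ligase that helps RNA sensing, had -0.11 (SE 1.03, adjusted p = 0.950), which became 0.18 after quantile normalization and 0.04 after centring on the array median.

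PARP9 and DTX3L form a complex that modifies histones and viral proteins, and PARP14 is a related ADP-ribosyltransferase; 0 of the 3 passed the threshold. PARP9 had log2 signals of 9.95, 10.05, 10.62 and 11.84 in FS21, NE42, RB03 and RB16, against 9.58, 9.74 and 9.31 in 63, 2970 and 3024r. DTX3L had 11.38, 11.55, 11.88 and 12.48 in the lymphomas and 10.91, 11.31 and 10.93 in the normal nodes. Both were without overlap, by small margins, with differences of 1.07 (SE 0.468, adjusted p = 0.174) and 0.77 (SE 0.314, adjusted p = 0.150). PARP14 had 9.21, 9.0, 8.99 and 10.11 against 9.12, 8.33 and 8.80, which overlapped (0.58, SE 0.355, adjusted p = 0.311).

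The remaining interferon-stimulated genes held 5 of the 8 rises, out of 10 tested. IFI44L had log2 signals of 11.27 in FS21, 11.26 in NE42, 11.42 in RB03 and 12.72 in RB16, and of 9.37 in 63, 8.92 in 2970 and 9.16 in 3024r. RB16 was highest and the groups were well apart, a rise of 2.52 (SE 0.401, adjusted p = 0.0150) or 5.73-fold. Its paralog and neighbour IFI44 had 10.84, 10.61, 11.63 and 11.99 against 9.95, 9.52 and 9.77 and rose by 1.52 (SE 0.376, adjusted p = 0.0440). Both encode cytoplasmic proteins that interferon induces and whose function is little known. RTP4, a chaperone of membrane receptors, had 10.55, 8.57, 9.88 and 10.56 in the lymphomas and 7.59, 7.80 and 8.16 in the normal nodes. NE42 was the lowest lymphoma but still above 3024r, and RTP4 rose by 2.04 (SE 0.503, adjusted p = 0.0437).

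XAF1, an antagonist of the apoptosis inhibitor XIAP, had log2 signals of 8.68 in FS21, 7.82 in NE42, 8.80 in RB03 and 8.88 in RB16, and of 6.99 in 63, 7.24 in 2970 and 6.97 in 3024r. The groups did not overlap, and XAF1 rose by 1.48 (SE 0.309, adjusted p = 0.0283). PNPT1, a mitochondrial enzyme that degrades RNA, had 10.90, 10.21, 10.16 and 10.83 against 9.27, 9.05 and 9.01. It rose by 1.41 (SE 0.274, adjusted p = 0.0236), with the narrowest spread of the 8 over all 14 arrays at 1.89. PLSCR1, a phospholipid scramblase, had 8.37, 5.83, 7.16 and 8.49 in the lymphomas and 8.48, 6.63 and 6.95 in the normal nodes, which overlapped throughout (0.11, SE 0.741, adjusted p = 0.929). IFI6, which acts at the endoplasmic reticulum, had the lowest difference of all members at -1.33, with an SE of 1.11 (adjusted p = 0.452). EPSTI1, IFI35 and TDRD7 had differences of 1.70, 0.65 and 0.44, with adjusted p-values of 0.107, 0.193 and 0.564.

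Class E-J had a higher mean than class K-N in 33 of the 35 members, all but OAS3 and ISG20, and a higher mean than the normal nodes in 31. Class E-J lay wholly above the 4 normal nodes in 14 of the 34 members with enough signal, against 7.26% of genes, and in 15 of 34 without 3024l, against 9.11% of genes. It lay wholly above class K-N in 15 of 34, against 6.26% of genes. Class K-N lay wholly below the normal nodes in 3 of 34, EIF2AK2, HERC5 and PARP14, against 9.12% of genes, and without 3024l in 5 of 34, against 16% of genes. The median member difference was 1.46 for class E-J minus normal nodes, 2.04 for class E-J minus class K-N and -0.48 for class K-N minus normal nodes, and over all genes these medians were 0.05, 0.05 and -0.02. The 3 differences share arrays, and class E-J holds NE41 and RB16, known to be high when the genes were chosen.

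By class, OAS1 had a lowest, median and highest log2 signal of 9.02, 9.39 and 10.44 in class E-J. It had 6.64 in RB07, 8.23 in RB10, 6.71 in FS25 and 6.50 in NE45, and 7.13, 6.32, 7.01 and 6.70 in 63, 2970, 3024l and 3024r. RB10 alone of class K-N stood above the normal nodes. ISG15 had 8.84, 10.70 and 12.0 in class E-J, against 8.59, 7.74, 7.21 and 5.43 in RB07, RB10, FS25 and NE45 and 7.85 to 8.41 in the normal nodes. All 3 class K-N arrays other than RB07 were below every normal node. PARP14 had 8.99, 9.29 and 10.11 in class E-J, against 7.53, 8.04, 4.57 and 4.70 in RB07, RB10, FS25 and NE45 and 8.31 to 9.12 in the normal nodes. FS25 and NE45, the 2 dogs with both a T-cell label and high CD3E, were the lowest, at signals under 100. EIF2AK2 was also lowest in FS25 and NE45, with 9.14, 10.23 and 11.55 in class E-J, then 7.95, 7.23, 5.04 and 5.87 (the last 2 again under 100) in those 4 arrays and 7.98 to 8.95 in the normal nodes. XAF1 had 7.82, 8.84 and 9.81 in class E-J, and the 3.78 of 3024l and the 2.71 of RB10 lay far below the other normal and class K-N arrays, of which the lowest was 6.81. PLSCR1 had 5.83, 7.65 and 8.49 in class E-J, with 2.53 in RB07 and 1.91 in NE45 but 6.63 in RB10 and 6.61 in FS25.

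**Figure D4:**
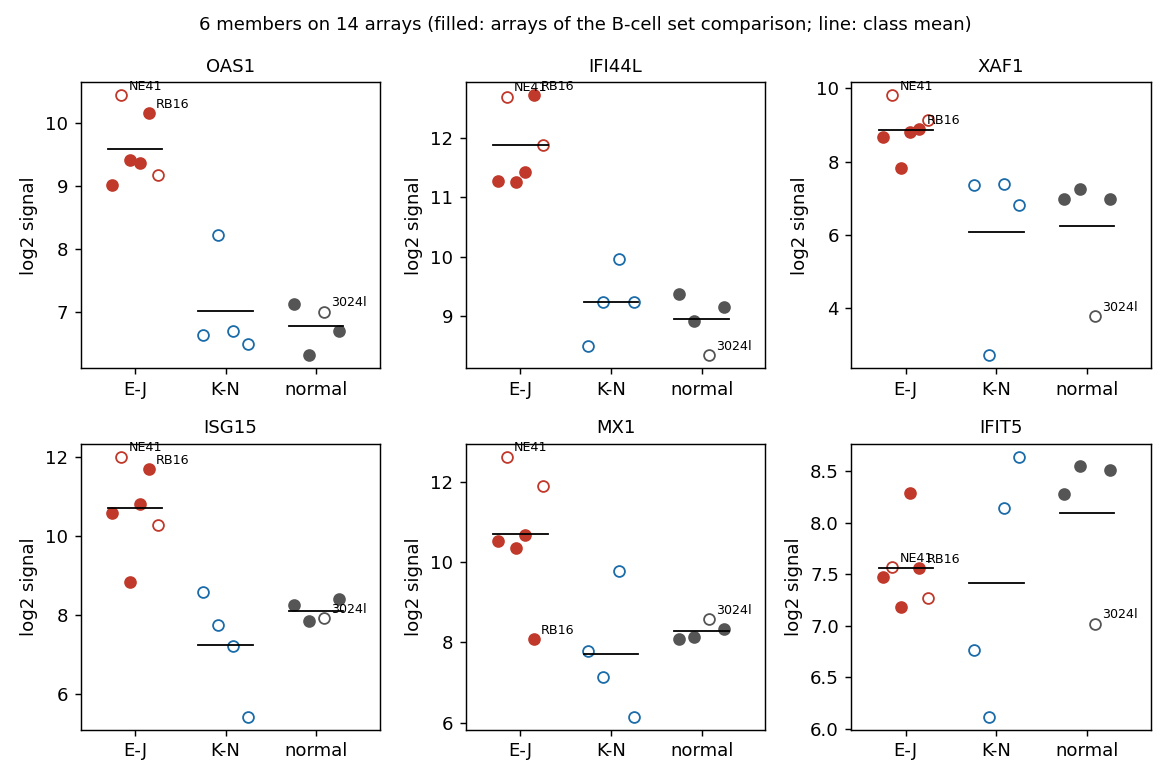
Log2 signal of OAS1, IFI44L, XAF1, ISG15, MX1 and IFIT5 (vertical axes, own scales) on the 14 arrays by class, with class means as lines; filled points are the arrays of the B-cell set and its normal nodes. Class E-J is wholly above the normal nodes for OAS1, IFI44L, XAF1 and ISG15, RB16 drops to 8.08 for MX1, and IFIT5 overlaps across classes.

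By label, 0 interferon-stimulated genes passed the threshold in any comparison of the 7 B-cell lymphomas, the 3 T-cell lymphomas and the 3 normal dogs (limma, 34 members and 9400 genes tested, 3024l and 3024r averaged). For B-cell lymphoma against normal nodes 6 members were higher and 0 lower by limma at an unadjusted p under 0.05. The share of all genes at that level was not counted for limma, so nothing is read from its unadjusted counts here. At the adjusted threshold limma called 1.79% of all genes in either direction. The methods' t-test called 2 members higher, IFIH1 and PNPT1, against 1.44% of all genes, and at its threshold of 0.2 it called 8 higher and 1 lower, against 7.35% of all genes higher and 11.8% lower. OAS1 had a lowest, median and highest of 6.64, 9.36 and 10.44 in B-cell lymphoma, overlapping with the normal nodes, and a difference of 2.27 (SE 0.769, adjusted p = 0.144). For T-cell lymphoma against normal nodes 1 member was higher and 2 were lower by limma at that unadjusted level, and 0.564% of all genes were called at the adjusted one. The methods' t-test called 0 members at 0.05 or 0.2, with 0 at the unadjusted level, where 437 of the 9400 genes were higher. PARP14 had 9.38 in FS22, 4.57 in FS25 and 4.70 in NE45, which put FS22 above and the others below the normal nodes, and a difference of -2.45 (SE 1.07, adjusted p = 0.293). For B-cell against T-cell lymphoma 6 members were higher by limma at the unadjusted level. At the adjusted one limma called 0% of all genes, the lowest adjusted p of any gene being 0.493. The methods' t-test called 0 members at 0.05 or 0.2, with 0 at the unadjusted level, where 139 of the 9400 genes were higher. The median member difference was 1.07 for B-cell lymphoma minus normal nodes, -0.22 for T-cell lymphoma minus normal nodes and 1.03 for B-cell minus T-cell lymphoma. Without RB07 the first comparison called 2 members, without FS22 the other 2 called 1 each, and without NE45 the median of T-cell lymphoma minus normal nodes was 0.29. The share of all genes called in these refits was not counted, so nothing is read from these calls. The median of B-cell minus T-cell lymphoma was 0.50 without NE45, 1.65 without FS22 and 1.55 with clinic as a block, and that of B-cell lymphoma minus normal nodes was 0.66 without 3024l.

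The same 3 comparisons were run without RB07, RB10 and FS22, where CD79A and CD3E went against the label, a step chosen after seeing the data. NE45, which was kept, had MS4A1 at 10.89 but CD79B at 6.2 and CD22 at 6.89. The lymphomas that remain are FS21, NE41, NE42, RB03 and RB16, all of class E-J, and FS25 and NE45, both of class K-N, so these counts follow classes drawn from the same profiles and are a description, with no test. In the 5 B-cell lymphomas against normal nodes 9 of 32 members were past the threshold and higher and 0 were lower, against 2.02% of genes higher and 4.9% lower. They were OAS1, IFI44L, RTP4, PNPT1, IFI44, XAF1, UBA7, ISG15 and USP18, of which 7 had also risen in the B-cell set. In the 2 T-cell lymphomas against normal nodes 3 of 32 were lower, namely PARP14, OAS2 and EIF2AK2, and 0 were higher, against 3.49% of genes lower and 0.834% higher. The signals of PARP14 and EIF2AK2 in FS25 and NE45 were under 100, so the size of these differences is uncertain. In B-cell against T-cell lymphoma 12 of 32 were higher and 0 lower, against 3.3% of genes higher and 2.08% lower. PARP14, EIF2AK2, OAS2, OAS1, UBA7, ISG15, RTP4, HERC5, HERC6, PARP9, IFI44L and IFI44 were the 12. The median member difference was 1.30 for B-cell lymphoma minus normal nodes, -0.38 for T-cell lymphoma minus normal nodes and 2.32 for B-cell minus T-cell lymphoma.

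The interferon-stimulated genes varied together over the 14 arrays to very different degrees. Over the 561 pairs of the 34 members the median Pearson r was 0.51, with quartiles of 0.20 and 0.72, a lowest of -0.45 and a highest of 0.96. These are descriptions over arrays that share scaling and cell makeup. A total of 87 pairs had an r above 0.8 and 75 were below 0. ISG15 followed the mean of the other members most closely (r = 0.958), then PARP9 (0.931), EIF2AK2 (0.922) and HERC6 (0.904). OAS3 (-0.157), IFIT5 (-0.091), IFI6 (-0.070), ISG20 (0.186) and MX2 (0.263) did not follow it closely. ISG20 encodes an exonuclease that degrades viral RNA, and its highest log2 signal was 9.61 in RB07 of class K-N.

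Members that lie side by side in the genome, by the RefSeq gene table of the dog assembly UU_Cfam_GSD_1.0, were alike in some cases only. PARP9 and DTX3L had an r of 0.961, IFI44 and IFI44L 0.955 and HERC5 and HERC6 0.913. MX1 and MX2 had 0.632 and RSAD2 and CMPK2 0.399. OAS1 and OAS2 had 0.766, whereas OAS3, which sits between them, had -0.123 with OAS1 and -0.107 with OAS2 and reached a signal of 100 on 6 of the 14 arrays. Paralogs such as IFI44 and IFI44L or MX1 and MX2 can share probe signal. Of the 9366 other genes compared over 14 arrays, LOC484343 (r = 0.958), LOC477353 (0.947) and BOC (0.943) were most like the mean member level. Next came DCLRE1C (0.927), IRAG2 (0.927), PTPRJ (0.921), GSAP (0.913) and CTSZ (0.913). RNF213 (0.905), KLHL14 (0.901), TMEM154 (0.898), PSMB10 (0.897), ITSN2 (0.895) and MOV10 (0.893) followed. RNF213 and MOV10 are themselves interferon-inducible, and PSMB10 is a subunit of the immunoproteasome.

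Few other genes of the interferon system passed the threshold in the B-cell set. Of the receptor and ISGF3 genes 4 were tested and 0 passed (limma). IFNAR1, a receptor chain, had a difference of 0.09 (SE 0.418, adjusted p = 0.908), STAT2 0.25 (SE 0.262, adjusted p = 0.549) and IRF9 -0.13 (SE 0.367, adjusted p = 0.835). STAT2 was nevertheless high in NE41, at 9.43, and low in NE45, at 5.97. The 4 interferon ligands on the array (IFNB1, IFNK, IFNG and IFNL1) were too dim to test. Among 8 genes of sensing and induction tested 0 passed, although IRF7, the regulator that amplifies interferon production, had 8.07, 7.40, 8.37 and 8.65 in FS21, NE42, RB03 and RB16 and 3.99, 2.30 and 8.05 in 63, 2970 and 3024r. Node 3024r stood with the lymphomas, so IRF7 overlapped (3.35, SE 1.21, adjusted p = 0.114). Of 6 restrainers of the signal 0 passed. Of 17 genes of the interferon-gamma response 0 rose and 1 fell, IDO1, which degrades tryptophan (-4.26, SE 1.00, adjusted p = 0.0381).

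Of 22 further interferon-inducible genes tested 2 rose and 2 fell. LAMP3, a lysosomal protein of mature dendritic cells, rose by 1.80 (SE 0.344, adjusted p = 0.0228), and MOV10, an RNA helicase that restrains retroviruses, rose by 1.14 (SE 0.236, adjusted p = 0.0277). SAMHD1, which depletes nucleotides in myeloid cells, fell by 2.60 (SE 0.403, adjusted p = 0.0138), and SIGLEC1, a receptor of node macrophages, fell by 2.89 (SE 0.635, adjusted p = 0.0318). The medians over the genes on the array were 0.03 for these genes, -0.38 for the interferon-gamma response, 0.17 for sensing and induction, -0.24 for the restrainers and -0.08 for the receptor and ISGF3 genes, against 1.31 for the members. All these lists share the same arrays, and RB16 of this set was known to be high when the members were chosen. Over the 14 arrays the summed signal of the further interferon-inducible genes, at log2, followed the mean member level (r = 0.941). It was 15.31 to 15.98 in class E-J, 14.24 to 14.73 in class K-N and 14.85 to 15.46 in normal nodes. For the other lists r was 0.842 (sensing and induction), 0.372 (interferon-gamma response), 0.293 (restrainers), 0.102 (ligands) and 0.09 (receptor and ISGF3).

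Cell type markers also differed between these groups, and their part in the members' values was not tested. In the B-cell set 10 of 16 T-cell markers and 13 of 18 macrophage and myeloid markers fell and 0 rose. Of 8 B-cell markers 1 rose, MS4A1 (CD20), by 1.65 (SE 0.337, adjusted p = 0.0268). A fall was also called for 1 of 8 plasmacytoid dendritic cell markers and 1 of 7 NK and cytotoxic markers. The study picked this set partly by B-cell staining and passed over arrays whose own profiles pointed to many T cells. The T-cell and B-cell marker counts of this set therefore partly describe that choice, and nothing is read from them. Of 17 proliferation genes 5 rose and 0 fell, TOP2A, a topoisomerase of dividing cells, by 1.38 (SE 0.275, adjusted p = 0.0252). Signals of each marker list were summed and the sum taken at log2, so the brightest genes dominate it. This sum for the T-cell markers was 11.77 to 13.99 in class E-J, 15.85 to 16.30 in class K-N and 14.07 to 15.20 in normal nodes. That of the B-cell markers was 13.25 to 14.77 in class E-J, 8.33 to 11.32 in class K-N and 12.33 to 13.17 in normal nodes. The plasmacytoid dendritic cell markers summed to 12.85 to 13.81 in class E-J, 10.63 to 11.70 in class K-N and 12.89 to 13.06 in normal nodes. The myeloid markers summed to 13.48 to 15.40 in class E-J, 13.25 to 14.94 in class K-N and 15.28 to 16.78 in normal nodes, and no marker of any of these lists was at a signal of 0. The 15.40 was that of RB16 and came mostly from LYZ (15.27). MARCO (7.81), CD209 (5.24) and MRC1 (6.70) in RB16 were below every normal node. Over the 14 arrays the sum had an r with the mean member level of -0.808 for T-cell, 0.706 for B-cell and 0.702 for plasmacytoid dendritic cell markers. It was -0.075 for myeloid markers, -0.059 for NK and cytotoxic markers and -0.208 for proliferation genes. NE41, highest in the members, had the highest B-cell sum (14.77) and the lowest T-cell sum (11.77), whereas RB16 had 13.61 and 13.99. The plasmacytoid dendritic cell sum was 13.81 in NE41 and 12.91 in RB16. That of NE41 rested on TCF4 (13.09) and CCDC50 (12.06), while its IL3RA (5.41) and NRP1 (6.05) were below every normal node.

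**Figure D5:**
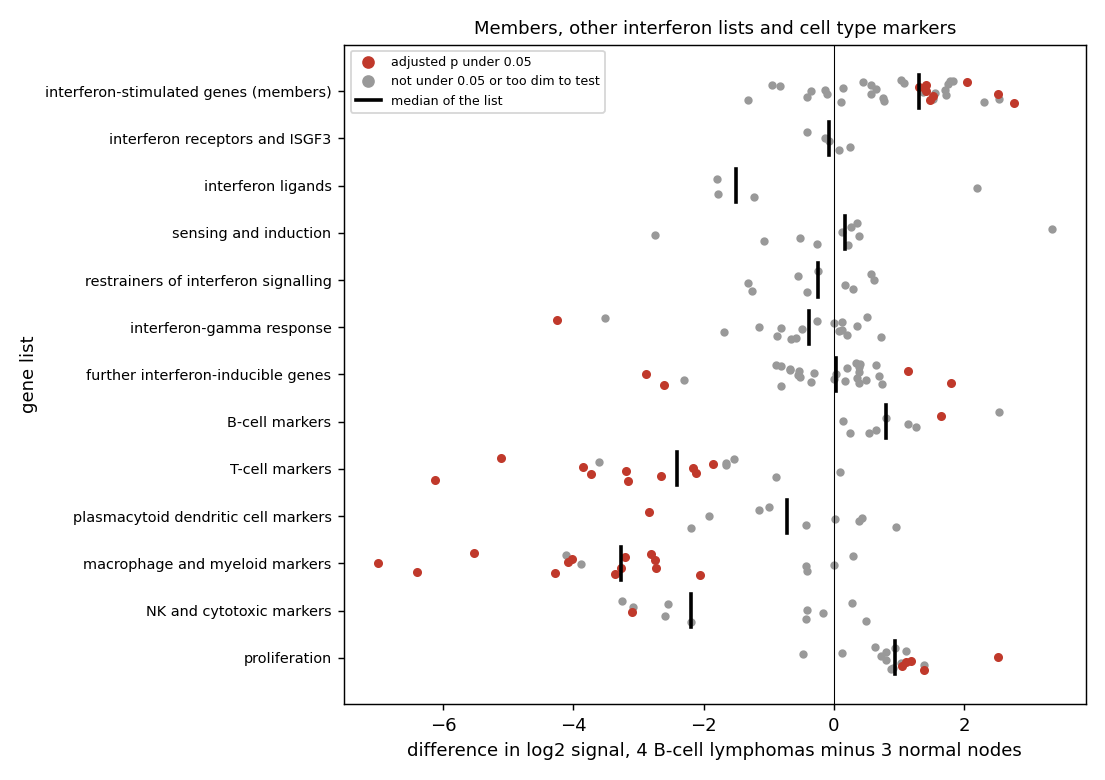
Each point is a gene of the members, the other interferon lists or the cell type markers, placed by its mean log2 signal in the B-cell set minus that in its normal nodes (horizontal axis), with adjusted p under 0.05 in red and the list's median as a bar. The members have the highest median, at 1.31, and the macrophage and myeloid markers the lowest, at -3.27.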

How the data were processed

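RNA from 14 lymph node aspirates was amplified and hybridised by the authors to Canine Genome V2.0 arrays. The deposited values are probe set signal intensities, which the authors summarised with the MAS5 algorithm and scaled to a trimmed mean of 500 on each array. They were used at log2, with no further scaling. Of 43035 probe sets, 29254 with exactly 1 symbol in the platform annotation were averaged into 15115 genes. Detection calls and array batches were not analysed here. The number of arrays limits the precision.

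Genes that reached a signal of 100 on 3 or more arrays of a fit were tested two-sided with limma 3.58.1 (lmFit and eBayes, R 4.3.3), Benjamini-Hochberg adjusted over all genes at 0.05. The methods' t-test, other filters, scalings, summaries and arrays were alternatives. Full values are given for members called in the B-cell set, the 3 of each role with the smallest p and the 5 of widest range, and for up to 3 genes of other lists with the smallest p. Values of IFNAR1, STAT2, IRF9, IRF7, ISG20 and other members were added after they were seen. The members and lists were chosen with earlier results of these data known. Figures were drawn with matplotlib 3.10.9.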

Additional observations from a re-analysis of the deposited data

Results flagged for a closer look

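Of 63 groups of 4 to 7 values examined for a single array far from the others, 7 had one, and chance flags about 1 group in 20. Among the lymphomas of the B-cell set, RB16 was apart with a log2 signal of 8.08 for MX1 (the others 10.36 to 10.68) and of 12.72 for IFI44L (the next 11.42). Among the 7 B-cell lymphomas, RB10 was apart for XAF1 at 2.71, the next being 7.37. Among the 4 normal arrays, 3024l was apart for XAF1 at 3.78 and for IFIH1 at 8.21, with the next at 6.97 and 8.92. Normal node 3024r was apart for IFIT2 at 4.97 and 63 for PNPT1 at 9.27, where the other 3 nodes lay between 9.01 and 9.05.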

How the results depend on the processing

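The median member difference of the B-cell set stayed positive under every alternative run, and was 0.86 to 1.35 with an array left out against 1.31 with all (0.86 without RB16). The number of members that rose, 8 at the settings used, was 13 with a pseudocount of 50 or with signals under 100 raised to 100, 2 with 3024l in place of 3024r, 1 with dim genes kept, and 0 with the methods' t-test at 0.05 (14 higher and 1 lower at its threshold of 0.2, a setting added after seeing the data) or with all arrays in 1 fit. With each array left out in turn it lay between 0 and 8, and 0 to 1 fell. The methods' t-test called 0.0362% of all genes higher at 0.05 and 12.5% at 0.2. For the other alternatives named here the share of all genes called was not counted, so nothing is read from their counts.

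For all B-cell lymphomas against normal nodes, the 0 called became 1 with the pseudocount, the floor at 100, the mean of linear signals or the brightest probe set, 2 by the methods' t-test at 0.05 (9 at 0.2), and 0 to 2 with an array left out. For T-cell lymphoma against normal nodes and for B-cell against T-cell lymphoma, 0 to 1 were called with an array left out. Other than for the methods' t-test, the share of all genes called was not counted for these alternatives, so nothing is read from their counts. The median difference of T-cell lymphoma minus normal nodes turned from -0.22 to 0.06 with the floor at 100 and lay between -0.41 and 0.29 with an array left out (0.29 without NE45). The median of B-cell minus T-cell lymphoma, 1.03, was 0.50 without NE45, 1.65 without FS22 and 1.55 with clinic as a block. Without RB07, RB10 and FS22, where the lymphomas left follow classes drawn from these profiles and the counts are a description, 9, 3 and 12 members were past the threshold, and the median of B-cell minus T-cell lymphoma was 2.32 instead of 1.03. The cause of these shifts was not tested, beyond the smaller groups left by an omitted array.

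The difference of IFIT2, -0.14 at the settings used, became 0.03 with the pseudocount, 0.28 with the floor, 0.14 with quantile normalization and 0.01 with median centring, and lay between -0.81 and 0.32 with an array left out. That of PLSCR1, 0.11, lay between -0.25 and 0.68 with an array left out. Of 360 values of 20 named genes under 18 alternatives, 12 changed sign, all of IFIT2 or PLSCR1. NE41 and RB16 stayed the highest arrays and NE45 the lowest under every scaling and summary tried. No paired analysis was possible because replicate numbers mark only the pair of nodes from dog 3024. Dim signals, close to background, limit OAS3, IFIT2 and RSAD2.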
